A study of Rattus norvegicus with 7 samples.

Results

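The miR-30 family is a group of microRNAs whose guide strands, the strands that are loaded into Argonaute, share one seed and can therefore bind overlapping sets of mRNAs. Members were chosen by name, as the guide strands rno-miR-30a, rno-miR-30b-5p, rno-miR-30c, rno-miR-30d and rno-miR-30e (rno for rat, left out below), which made 5 of the 677 rat miRNAs on the arrays. The opposite strands of the same hairpins, called passenger strands and marked by a star or 3p, were left out of the family and are described separately.

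A miRNA lowers the translation and stability of mRNAs that pair with its seed, and miRNAs with one seed compete for the same sites. In the endocrine pancreas the family is known for its abundance in islet cells and for restraining mesenchymal transcripts when islet cells lose their epithelial state. miR-30d has also been linked to insulin gene expression in beta cell lines.

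Islets of the pancreas were taken by collagenase digestion from male Wistar rats, an outbred strain. Replicates 2, 4, 10 and 16 were 12-month-old rats (n = 4), replicates 9, 11 and 13 were 3-month-old rats (n = 3), and each rat had its own array. Whole islets hold alpha, delta and other cells beside beta cells, and they can carry exocrine, vascular and stromal tissue. In such material, fewer cells of one type and less of a miRNA per cell cannot be told apart.

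Mature sequences of 3 of the 5 guide strands were found in the RefSeq table of the rat assembly GRCr8. They are shown because the shared seed, bases 2 to 8 in capitals, defines the family, whereas the remaining bases decide how well array probes can tell the members apart.

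miR-30a-5p: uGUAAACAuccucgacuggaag
miR-30c-5p: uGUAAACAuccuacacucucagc
miR-30e-5p: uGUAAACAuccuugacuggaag

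The mature miR-30a-5p lies at chr9:33233946-33233967 on the plus strand and miR-30e-5p at chr5:139637504-139637525 on the minus strand. The sequence of miR-30c-5p is encoded by both Mir30c1, at chr5:139634505-139634527 on the minus strand, and Mir30c2, at chr9:33253695-33253717 on the plus strand, so its array signal could come from either gene. Counted from the 5′ end, miR-30a and miR-30e were the same at 21 of 22 positions and differed by C13U. Each of these was the same as miR-30c at 17 of 22 positions, and all differences lay between positions 13 and 20. miR-30b-5p and miR-30d are named here without a sequence.

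The 6 hairpin genes of the family stand in pairs. Mir30c1 and Mir30e lie within the span of Nfyc, which encodes a subunit of the transcription factor NF-Y, on chromosome 5. Mir30b and Mir30d lie within a long non-coding RNA gene on chromosome 7. Mir30a and Mir30c2 both lie on chromosome 9, with 2 other genes starting between them. Mir30c2 lies within the spans of a long non-coding RNA gene and a pseudogene. Of the 693 mature rat miRNAs in the table, 4 carried the miR-30 seed at bases 2 to 8, and 1 of them, miR-384-5p from chromosome X, was not a member by name.

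miR-384-5p: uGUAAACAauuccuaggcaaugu

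This miRNA was detected on 7 of 7 arrays, and its normalised log2 level was 10.45 ± 0.31 in the older rats (SD, n = 4), against 10.48 ± 0.05 in the younger ones (SD, n = 3). Its difference of -0.03 did not pass the test (adjusted p = 0.953 by limma).

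Total signal differed between the ages across the arrays. The scanner software called between 278 and 296 miRNAs detected per array at 12 months and between 246 and 272 at 3 months, and the 75th percentile of total gene signals (the background-subtracted intensity summed over the probes of a miRNA) was 67.0 to 73.8 units at 12 months and 37.4 to 55.4 at 3 months. All arrays lay on 1 slide. The first row of the slide held replicates 2, 4 and 9, and the second row held the other 4 rats. Markers of other cells also moved with age on the normalised scale. All 3 acinar markers were lower at 12 months at an unadjusted p below 0.05 (12.5% of all miRNAs tested were lower by this criterion and 9.19% higher), with a summed log2 level of 6.94 to 10.4 against 10.2 to 11.5, and the brightest, miR-216a, differed by -2.11 (adjusted p = 0.170 by limma). Of 5 mesenchymal markers 4 were higher by the same criterion, with a summed level of 10.9 to 11.5 against 10.2 to 10.9, although the brightest, miR-143, differed by 0.38 and did not pass (adjusted p = 0.324 by limma). Of 4 leukocyte markers 2 were higher (summed level 8.03 to 8.93 against 7.81 to 7.98), as was 1 of 2 endothelial markers (10.66 to 11.08 against 10.73 to 10.83) and 0 of 2 erythroid markers (6.92 to 7.84 against 6.57 to 8.24). No acinar, mesenchymal, leukocyte, erythroid or endothelial marker reached an adjusted p below 0.05, and none was undetected on every array. Among the markers counted as higher, 1 leukocyte marker was detected on 4 of 7 arrays, and 1 mesenchymal and 1 endothelial marker on 6. The leukocyte one was thus tested only because of the group in which it was high, and its count is a description. Their part in the levels of the miR-30 family was not tested.

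The array of 3 months replicate 9 stood apart for normalised miR-30d and for the probe shares of all 5 guide strands, as described below. The age difference of miR-30d and the changes of the pairs are therefore also given without it. Other values include it unless stated.

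All 5 guide strands were detected on all 7 arrays. Each was read by 2 probes of 10 spots, and all spots of these probes were well above background. The coefficient of variation of the 10 spots had a median of 3.76% and reached 27.9%. On each array the 5 guide strands ranked between 37 and 75 of the 677 rat miRNAs by signal.

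rno-miR-30a, a family member studied for its action on mesenchymal transcripts, gave total gene signals of 1388, 1184, 1077 and 1398 units in the 12-month-old rats 2, 4, 10 and 16. The 3-month-old rats 9, 11 and 13 gave 858, 957 and 632 units. As scanned, every older rat was above every younger rat.

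rno-miR-30b-5p, whose gene neighbours that of miR-30d, gave 1874, 1544, 1113 and 1646 units in the older rats, in the same order. The younger rats gave 853, 1152 and 766 units. The ages overlapped, because replicate 11 at 3 months lay above replicate 10 at 12 months.

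rno-miR-30c, which has a pair of source genes, gave 721, 571, 454 and 678 units at 12 months. It gave 286, 452 and 308 units at 3 months. The ages did not overlap, although replicate 10 at 12 months and replicate 11 at 3 months were nearly equal.

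rno-miR-30d gave 959.5, 781, 627 and 857 units at 12 months. It gave 906, 602 and 424 units at 3 months. Replicate 9 lay within the range of the older rats, well above the other young rats, so the ages overlapped.

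rno-miR-30e, which differs from miR-30a by 1 base, gave 1031, 851, 678 and 970.0 units at 12 months. It gave 562, 637 and 459.8 units at 3 months. All older rats were above all younger rats, and replicate 10 was the lowest of the older group, as it was for each of the other guide strands.

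Without any normalisation 3 of the 5 guide strands, miR-30a, miR-30c and miR-30e, therefore did not overlap between the ages. Over all 272 miRNAs tested, 48.5% did not overlap in the same values. The unnormalised differences of the guide strands ran from 0.38 for miR-30d to 0.80 for miR-30c on the log2 scale, and the median of all miRNAs tested was 0.79. Only miR-30c lay above that median.

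**Figure D1:**
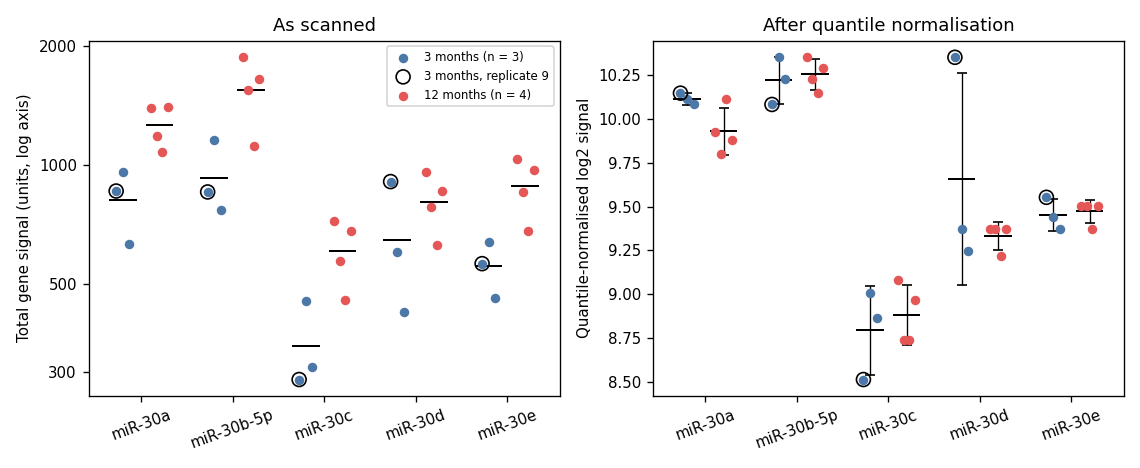
The left panel shows the total gene signal of the 5 miR-30 guide strands in units on a log axis, and the right panel their quantile-normalised log2 signal, with 1 point per rat, horizontal lines for the means and error bars of 1 SD (right). As scanned the ages overlapped for miR-30b-5p and miR-30d but not for the other 3 strands, they overlapped for every strand after normalisation, and miR-30d of 3 months replicate 9 (ringed, 10.35) lay above the other 6 rats (9.22 to 9.37).

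Quantile normalisation gives every array the same distribution of signals, so a normalised value shows where a miRNA stood relative to the others on its array. After it, none of the 5 guide strands passed the test for a change with age. By limma, 0 of 5 had an unadjusted p below 0.05 and 0 of 5 an adjusted one, where 21.7% of all 272 miRNAs tested passed the unadjusted threshold (59 miRNAs) and 1.47% the adjusted one (4 miRNAs). None of the 5 separated the ages without overlap, as against 17.3% of all miRNAs tested. The median difference of the guide strands was 0.02, and that of all miRNAs tested was 0.06.

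In the older rats the normalised level of miR-30a was 9.93 ± 0.13 (SD, n = 4), against 10.11 ± 0.03 in the younger ones (SD, n = 3). In all, 3 older rats stood below all younger rats, and replicate 10 stood at the level of replicate 11. Its log2 difference of -0.18 (SE 0.14, 95% interval -0.50 to 0.13) did not pass limma's test (p = 0.215, adjusted p = 0.523), nor the two-sided exact permutation test (p = 0.114). Without 12 months replicate 10 the difference was -0.24, with an unadjusted p of 0.0371 and an adjusted p of 0.130 by limma.

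In the older rats the normalised level of miR-30b-5p was 10.25 ± 0.09 (SD, n = 4), against 10.22 ± 0.13 in the younger ones (SD, n = 3). The difference was 0.03 (SE 0.14, 95% interval -0.28 to 0.35, adjusted p = 0.947 by limma, exact permutation p = 0.743). The ages overlapped throughout.

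In the older rats the normalised level of miR-30c was 8.88 ± 0.17 (SD, n = 4), against 8.80 ± 0.25 in the younger ones (SD, n = 3). The difference was 0.09 (SE 0.17, 95% interval -0.31 to 0.49, adjusted p = 0.899 by limma, exact permutation p = 0.686). The lowest of the 7 rats was 3 months replicate 9.

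In the older rats the normalised level of miR-30d was 9.33 ± 0.08 (SD, n = 4), against 9.66 ± 0.60 in the younger ones (SD, n = 3). The difference of -0.32 was the least precise of the family (SE 0.26, 95% interval -0.93 to 0.28, adjusted p = 0.565 by limma, exact permutation p = 0.4). It rested on 1 rat, since without 3 months replicate 9 it was 0.02. In the first row of the slide, which held that rat, the difference was -0.98 (2 older rats against 1), and in the second row it was -0.02 (2 against 2).

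Normalised miR-30e varied least, from 9.47 ± 0.07 in the older rats (SD, n = 4) to 9.45 ± 0.09 in the younger ones (SD, n = 3). Its difference was 0.02 (SE 0.13, 95% interval -0.28 to 0.32, adjusted p = 0.953 by limma, exact permutation p = 0.83). Over the 7 rats it spanned 0.18 on the log2 scale, against 0.27 for miR-30b-5p, 0.35 for miR-30a, 0.57 for miR-30c and 1.13 for miR-30d.

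Within rows of the slide, the other guide strands also differed little in the second row. There the difference was -0.10 for miR-30a, -0.07 for miR-30b-5p, -0.08 for miR-30c and 0.03 for miR-30e. In the first row, with replicate 9 as the only young rat, it was -0.28, 0.21, 0.40 and -0.05 in the same order.

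**Figure D2:**
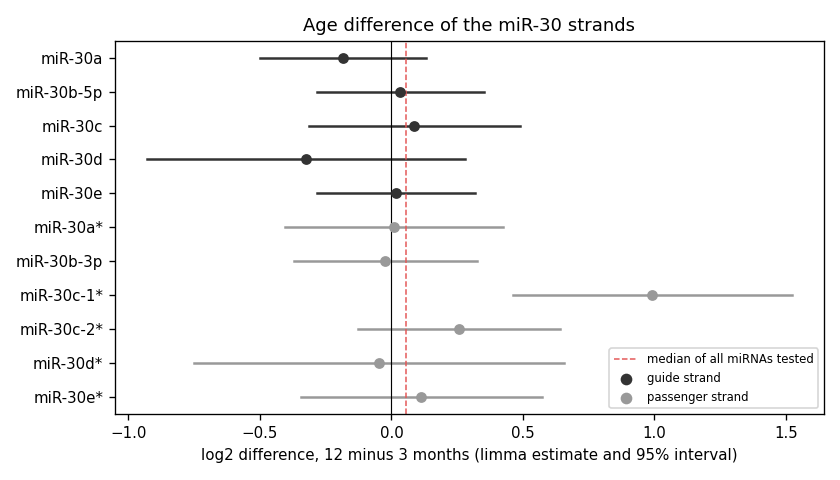
The age difference of each miR-30 strand on the horizontal axis, as the log2 level at 12 months minus that at 3 months, with limma's estimate (point) and 95% interval (line) for guide strands (dark) and passenger strands (grey). Every guide strand's interval crosses 0, miR-30d has the widest among them, and the passenger strand miR-30c-1*, whose probe was not detected in any young rat, lies to the right of 0.

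Whether the members kept their proportions to one another was asked within each array, because a factor that scales a whole array cancels in the log2 difference of a pair of its miRNAs. Such a difference compares rats and says nothing of which member was more abundant. Of 10 pairs of guide strands, none passed the two-sided exact permutation test for a change with age. The smallest exact p was 0.0857, for miR-30d minus miR-30e (adjusted over the 10 pairs, p = 0.571). For that pair the exact p was 0.0286 with averaged spot signals, with normexp and with quantile normalisation (adjusted p = 0.286 in each), and 0.467 without 3 months replicate 9.

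In 6 of the 7 rats the proportions varied little, and the widest spread was that of miR-30a to miR-30b-5p. The ratio of the miR-30a signal to the miR-30b-5p signal lay between 0.741 and 0.968 in these rats and was 1.01 in 3 months replicate 9. The ratio of the miR-30d signal to the miR-30e signal lay between 0.884 and 0.944 in the 6 rats, old and young, and was 1.61 in replicate 9. The ratio of miR-30c to miR-30e lay between 0.669 and 0.709 in the 6 rats and was 0.509 in replicate 9. The near-identical pair miR-30a and miR-30e gave 1.35 to 1.59 in the 6 rats and 1.53 in replicate 9. It was the only pair of the 10 for which replicate 9 was not outside the range of the others. The pairs share members, so they are not independent, and pairs of miRNAs outside the family were not examined.

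Among the 6 other rats the SD of the log2 difference ran from 0.03 for miR-30d minus miR-30e to 0.13 for miR-30a minus miR-30b-5p. Without replicate 9 the change from 3 to 12 months lay between -0.03 and 0.03 for all 10 pairs. With it, the 4 pairs that hold miR-30d changed most, by 0.27, 0.36 and 0.43 for miR-30a, miR-30b-5p and miR-30c minus miR-30d and by -0.29 for miR-30d minus miR-30e, and none of these passed the exact test.

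**Figure D3:**
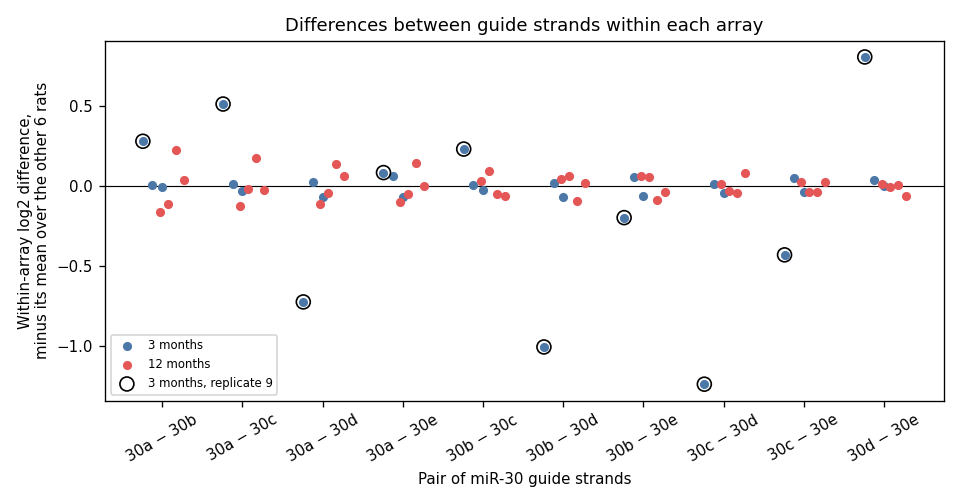
For each of the 10 pairs of miR-30 guide strands on the horizontal axis, the vertical axis gives the log2 difference of their total gene signals within an array, minus its mean over the 6 rats other than 3 months replicate 9, with 1 point per rat. The 6 rats of both ages lie close to 0, and replicate 9 (ringed) lies outside them in 9 of 10 pairs, farthest in those that hold miR-30d. The pairs share members, and pairs of other miRNAs were not examined.

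The high miR-30d of replicate 9 was present in both of its probes. The spots of the dimmer probe gave 551 to 597 units in replicate 9 and at most 351 in the other young rats. Those of the brighter probe gave 695 to 783 units, against at most 553. The passenger strand of the same hairpin, miR-30d*, was not high in that rat, with 6.11 units against 5.14 and 6.52 in the other young rats. On the normalised log2 scale it stood at 3.04 against 2.43 and 3.44. This strand was faint on every array (5.14 to 13.1 units), which limits the contrast with its guide.

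Relative to the mean of the other 6 rats, normalised miR-30d was higher by 1.02 in replicate 9, and of 238 miRNAs detected on all arrays, 8 (3.36%) departed at least as far there, miR-30d included. The others were miR-494, miR-144, miR-383, miR-328a*, miR-188, miR-217 and miR-672, listed for this departure after their values were seen. For miR-383 and miR-217 replicate 9 lay within the range of the other 6 rats. These 2 differed between the ages by 2.43 and -1.89 (adjusted p = 0.000306 and 0.163 by limma). miR-494 went farthest, by 2.56, with 1265 units against 271 to 463 in the other 6 rats. The other guide strands departed by 0.16 for miR-30a, -0.18 for miR-30b-5p, -0.39 for miR-30c and 0.10 for miR-30e. Of the 238 miRNAs, 60.9%, 57.1%, 26.5% and 73.5% departed at least as far there, in the same order.

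The probes of replicate 9 also divided the signal differently. The share of the total gene signal read by the dimmer probe was nearly fixed in the other 6 rats. For miR-30a that share was 16.1% to 18.3% in the 6 rats and 26.9% in replicate 9.

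The same held for the other guide strands. The share was 9.17% against 8.09% to 8.59% for miR-30b-5p, and 17.0% against 14.4% to 15.4% for miR-30c. It was 43.3% against 38.6% to 39.8% for miR-30d, and 16.6% against 12.2% to 13.2% for miR-30e. In 5 of 5 guide strands the array of replicate 9 thus lay outside the range of the others, on the same side. Probe shares were taken for the guide strands only, so whether other miRNAs shifted alike on this array is not known. The part of this shift in the high miR-30d was not tested.

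**Figure D4:**
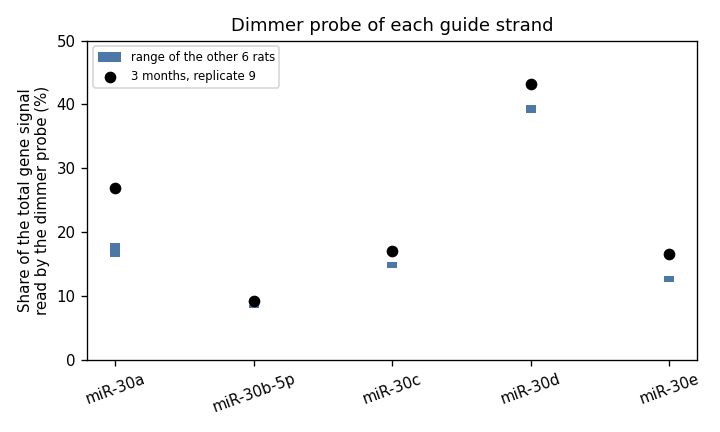
The share of the total gene signal read by the dimmer of the 2 probes of each miR-30 guide strand, in percent, with bars for the range over 6 rats and points for 3 months replicate 9. The point lies above the bar for all 5 strands, by most for miR-30a (26.9% against at most 18.3%). Probes of other miRNAs were not examined.

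Passenger strands are usually degraded after the guide is loaded, and their level depends on the same hairpin. Their sequences are shown where the table held them, as they carry other seeds (in capitals) than the guides and the pair from Mir30c1 and Mir30c2 shares a seed.

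miR-30a-3p: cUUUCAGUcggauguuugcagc
miR-30c-1-3p: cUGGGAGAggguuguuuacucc
miR-30c-2-3p: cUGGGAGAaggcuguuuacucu

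These correspond to miR-30a*, miR-30c-1* and miR-30c-2* on the array. Of the 6 passenger strands, 5 were detected on all 7 arrays, and 1 of 6 had an unadjusted p below 0.05 and 0 of 6 an adjusted one by limma, where 21.7% and 1.47% of all miRNAs tested did. The median difference of the 6 was 0.06, as it was over all miRNAs tested.

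The strand past the unadjusted threshold was miR-30c-1*, which was the faintest. It gave 2.69, 4.92, 3.14 and 3.96 units in the older rats, where it was detected on all 4 arrays. It gave 0.91, 1.47 and 1.16 units in the young rats, where it was not detected on any. It was therefore tested only because of the group in which it was high, its 3-month level is a bound, and its p values are given as a description.

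The fitted difference of 0.99 (SE 0.23, p = 0.00251, adjusted p = 0.0608 by limma) had the smallest p of the exact permutation test, 0.0286. The difference shrank to 0.05 when each array's lowest detected signal was the floor (adjusted p = 0.942 by limma), to 0.15 in the deposited matrix (adjusted p = 0.475) and to -0.05 under another background correction, normexp (adjusted p = 0.371). The other product of miR-30c, miR-30c-2*, differed by 0.26 (SE 0.17, adjusted p = 0.458 by limma) and stood at 4.92 ± 0.16 in the older (SD, n = 4) against 4.67 ± 0.23 in the younger rats (SD, n = 3).

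The remaining passenger strands were near 0. The differences were 0.01 for miR-30a* (adjusted p = 0.970 by limma), -0.02 for miR-30b-3p (adjusted p = 0.953), -0.05 for miR-30d* (adjusted p = 0.953) and 0.11 for miR-30e* (adjusted p = 0.883). The difference between guide and passenger within an array, taken for 5 hairpins with miR-30c-2* as the partner of miR-30c, passed the test for a change with age in none (exact permutation p of 0.543 to 0.886, adjusted p = 0.886 over the 5).

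Replicate 9 again lay outside the other rats for part of the family. Its guide exceeded its passenger by 4.15 on the log2 scale for miR-30a, against 3.58 to 3.72 in the other 6 rats. The values were 3.78 against 3.32 to 3.46 for miR-30e and 7.21 against 6.02 to 6.90 for miR-30d. It lay on the lower side for miR-30b-5p, at 5.85 against 5.92 to 6.19, and within the range of the others for miR-30c.

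Other miRNAs of endocrine identity were set beside the family. This list held 15 miRNAs, among them miR-375 and miR-7a, which mark islet endocrine cells, and 13 were tested. At an unadjusted and at an adjusted p below 0.05, 1 of 13 was higher at 12 months and 0 were lower (1.1% of all miRNAs tested were higher at an adjusted p below 0.05), and the median difference was 0.04. The one past both thresholds was miR-124, a miRNA of neurons that also acts on islet transcription factors. It stood at 5.42 ± 1.41 at 12 months (SD, n = 4) and was not detected at 3 months. Against the lowest level called detected on each young array, the mean of the older rats was 19.7-fold higher. miR-124 too was tested only because of the group in which it was high (adjusted p = 0.00269 by limma, with every young rat at the floor). miR-9 and miR-184 of this list were not detected on any array. miR-184 nonetheless stood at 2.31 ± 0.73 at 3 months (SD, n = 3), above the mean of 1.11 for the lowest detected levels. The 19.7-fold value of miR-124 is therefore not a strict lower limit.

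The 3 endocrine markers miR-375, miR-7a and miR-7b were detected on all arrays, and 0 of 3 passed the unadjusted threshold. miR-375 differed by -0.20 (adjusted p = 0.552 by limma) and miR-7a, the brightest of them, by -0.07 (adjusted p = 0.897). The 6 epithelial miRNAs of the miR-200 group and miR-205, which keep cells in an epithelial state as the miR-30 family is thought to do in islets, had 0 of 6 past the unadjusted threshold and a median difference of -0.03. Over all miRNAs tested, 21.7% passed that threshold.

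The direction of the guide strands depended in part on how arrays were scaled, and miR-30d was higher only with no normalisation. When each array was scaled to its miR-7a signal, all 5 were lower at 12 months, by 0.07 to 0.49 on the log2 scale, with a median of -0.20, and the median of all miRNAs tested was -0.08. With no normalisation all 5 were higher, and 4 of 5 had an adjusted p below 0.05 by limma (0.0462 for miR-30a, 0.0372 for miR-30b-5p, 0.0314 for miR-30c and 0.0432 for miR-30e), where 62.9% of all miRNAs tested passed that threshold and 71% the unadjusted one. miR-30d was the exception (adjusted p = 0.273). When scaled to the 75th percentile of the miRNAs found on every array, 2 were higher and 3 lower, and with that of all miRNAs 4 were higher and 1 lower, and none passed.

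**Figure D5:**
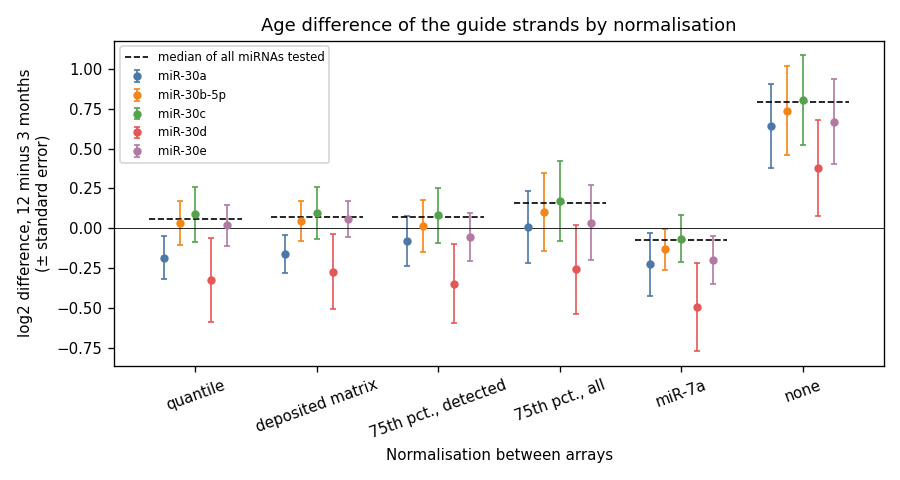
The log2 difference of each miR-30 guide strand, 12 months minus 3 months, with its standard error, under 6 ways of scaling the arrays (horizontal axis). Dashed lines give the median of all miRNAs tested, with which the strands move: from -0.08 when scaled to miR-7a to 0.79 with no normalisation.

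The mean of the 5 guide strands on the normalised log2 scale was 9.65, 9.53, 9.52 and 9.60 in the older rats 2, 4, 10 and 16. It was 9.73, 9.66 and 9.56 in the young rats 9, 11 and 13. The mean of rat 9 held its high miR-30d, which departed by 1.02 from the mean of the other rats. The other guide strands departed there by -0.39 to 0.16. The whole span of the family mean was narrow, and the ages overlapped.

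The 3 of 233 miRNAs outside the family with the most similar course over the 7 rats were miR-182 (Pearson r = 0.88, Spearman rho = 0.86), let-7d* (r = 0.88, rho = 0.89) and miR-200c (r = 0.87, rho = 0.88). All points share their array and its normalisation. The family mean they were compared with included the high miR-30d of 3 months replicate 9, and no r was taken without that strand. Without 3 months replicate 9 and 12 months replicate 10, the rats farthest from the median, r was 0.61, 0.77 and 0.69 over 5 rats. miR-182 and miR-200c are both abundant in neuroendocrine or epithelial cells, and none of the 3 passed the test for age (adjusted p of 0.817, 0.396 and 0.399 by limma).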

How the data were processed

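Islet RNA of male Wistar rats had been extracted with miRNeasy, labelled with Cy3 and hybridised to Agilent single-colour miRNA arrays. The authors deposited the output of Agilent Feature Extraction (version 10.7.3.1) with linear intensities after background subtraction, and a matrix of 307 miRNAs with log2 values, quantile normalised according to the notes of the study's miRNA list. The intensity of each array, the total gene signal, was used for 677 rat miRNAs. After a floor of 1 and a log2 transform, the arrays were quantile normalised with limma (version 3.58.1, R 4.3.3). The 272 miRNAs detected on all arrays of at least 1 age were tested with lmFit and eBayes, two-sided, with Benjamini-Hochberg adjustment at a threshold of 0.05. Single values and pairs were tested by exact permutation over the 35 splits of 4 against 3 rats (smallest p 0.0286). The labels give rats by number but no litter, so p values measure the spread between these samples. Groups came from the sample titles. The members and lists were chosen with earlier results of these data known. Named were the guide and passenger strands, list members with an adjusted p below 0.05, the brightest marker of each cell type, miR-375, miR-7a and the 3 miRNAs most like the mean of the guides. The script was tested on simulated data. Precision is limited by the number of arrays. The array design names an older assembly than GRCr8, so RefSeq tables were used for sequences and their own positions and for neighbouring genes only.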

Additional observations from a re-analysis of the deposited data

Results flagged for a closer look

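Of 21 sets of values of the 4 older rats that were checked, 2 were marked. In both, 12 months replicate 10 stood apart from the other 3 for miR-30d and miR-30e. Its normalised log2 level was 9.22 against 9.37 in the other 3 for miR-30d, and 9.37 against 9.51 for miR-30e. The gap made up the whole range in both (a ratio of 1), because quantile normalisation gives miRNAs of equal rank the same value and the other 3 rats held equal ranks. The nominal rate of about 1 in 20 groups marked by chance assumes values without ties, so it does not apply to these 2.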

How the results depend on the processing

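No paired analysis was possible because the 2 ages share no replicate numbers. The small number of arrays limits every comparison, and a signal near background limits miR-30c-1*. No guide strand passed the adjusted threshold under any setting other than no normalisation. The cause of the shifts below was not tested.

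With no normalisation the log2 difference was 0.64 for miR-30a, 0.74 for miR-30b-5p, 0.80 for miR-30c, 0.38 for miR-30d, 0.67 for miR-30e, 0.75 for miR-30a*, 0.69 for miR-30b-3p, 1.58 for miR-30c-1*, 0.79 for miR-30c-2*, 0.67 for miR-30d* and 0.76 for miR-30e*. Then 4 guide strands passed the unadjusted and 4 the adjusted threshold, as did 193 and 171 of all miRNAs tested. Scaled to miR-7a, the difference was -0.13 for miR-30b-5p, -0.065 for miR-30c, -0.20 for miR-30e, -0.11 for miR-30a*, -0.081 for miR-30c-2* and -0.11 for miR-30e*, with 37 miRNAs past the unadjusted and 15 past the adjusted threshold. Scaled to the 75th percentile of the miRNAs found on every array, miR-30e was at -0.054 and 20 miRNAs passed the adjusted threshold. With that of all miRNAs, miR-30a was at 0.0090, miR-30b-3p at 0.059 and miR-30d* at 0.035, and 9 miRNAs passed. In the deposited matrix miR-30b-3p was at 0.0023 and miR-30d* at 0.0053, and 8 miRNAs passed. Averaged spot signals put miR-30b-3p at 0.038, and normexp put miR-30c-1* at -0.054. The floor at each array's lowest detected signal put miR-30c-1* at 0.051 and the deposited matrix at 0.15, with adjusted p values of 0.942 and 0.475 by limma. Array weights put miR-30b-3p at 0.086, miR-30d* at 0.44 and miR-30c-1* at 0.94 (adjusted p = 0.0168 by limma). There 1 guide strand, miR-30a, and 89 miRNAs passed the unadjusted threshold and 48 the adjusted one. Among miRNAs detected on all arrays 1 passed the adjusted threshold.

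When each rat was left out in turn, the difference ranged from -0.24 to -0.14 for miR-30a, from -0.038 to 0.10 for miR-30b-5p, from -0.042 to 0.20 for miR-30c, from -0.54 to 0.022 for miR-30d and from -0.028 to 0.065 for miR-30e. It ranged from -0.12 to 0.11 for miR-30a*, from -0.091 to 0.066 for miR-30b-3p, from 0.73 to 1.24 for miR-30c-1*, from 0.14 to 0.36 for miR-30c-2*, from -0.32 to 0.19 for miR-30d* and from -0.023 to 0.22 for miR-30e*. Between 0 and 1 guide strands (miR-30a without 12 months replicate 10) passed the unadjusted threshold, and between 41 (without 12 months replicate 16) and 88 (without 12 months replicate 10) of all miRNAs. Between 4 and 10 (without 12 months replicate 10) passed the adjusted one.

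Among the pairs, miR-30d minus miR-30e had an exact p of 0.0286 with averaged spot signals, normexp and quantile normalisation, and an adjusted p of 0.286. The difference miR-30b-5p minus miR-30c changed by 0.014 with normexp and miR-30b-5p minus miR-30e by -0.014 in the deposited matrix. With rats left out, the change ranged from -0.26 to 0.013 for miR-30a minus miR-30c, from -0.074 to 0.0057 for miR-30a minus miR-30e, from -0.12 to 0.014 for miR-30b-5p minus miR-30c and from -0.010 to 0.23 for miR-30c minus miR-30e, and each changed sign without 3 months replicate 9.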
